A study of Mus musculus with 8 samples.

Results

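The microvilli of absorptive enterocytes carry hydrolases that finish the digestion of sugars, peptides and phosphate esters at the cell surface. The RNA levels of 10 such genes were followed in intestinal crypts of Mex3a knock-out (KO) mice and their controls. They were the disaccharidases Sis, Lct, Treh and Mgam, the phosphatase Alpi, and the peptidases Anpep, Enpep, Ace, Dpp4 and Naaladl1. These genes were chosen by name, with earlier results of these data known. All 10 were found among the 55114 genes of the deposited table. The study asked how loss of Mex3a, an RNA-binding protein of intestinal stem cells, changes the crypt transcriptome. KO mice (Mex3a-/-, 4 animals) carried a constitutive deletion of exon 1 and part of exon 2 of Mex3a, and their controls (WT, labelled Ctrl, 4 animals) were littermates. All 8 mice were C57BL/6, were 8 weeks old and received no treatment named in the labels. Since the deletion was constitutive, Mex3a was lost from every cell of the animal and not from the epithelium alone. Crypts were released from the intestine by EDTA and passed through a 70 µm strainer, without sorting of cells, and the labels do not name the intestinal segment.

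Brush border hydrolases are made as an enterocyte leaves the crypt and matures on the villus, where starch, sucrose, lactose, trehalose and peptides are broken down to units that membrane transporters can take up. Crypts hold mainly stem, progenitor and Paneth cells, with early enterocytes in their upper part. Several of the enzymes are known to be zoned along the intestine, lactase and alkaline phosphatase towards the proximal part and Naaladl1 towards the ileum.

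Between 20324184 and 24726221 reads per WT mouse and between 23489180 and 30654105 per KO mouse were counted on genes. Mex3a itself stood at 13.3 ± 2.10 CPM (read counts divided by library size after TMM scaling; SD, n = 4) in WT and at 0.613 ± 0.417 in KO mice, and was the only gene of the 16109 tested with an adjusted p under 0.05 (log2 fold change −4.43, adjusted p = 0.0310, edgeR's quasi-likelihood test with Benjamini-Hochberg adjustment). With the replicate number as a block its log2 fold change was −4.51 and its adjusted p 0.126 (edgeR), so that 0 genes passed. Without 1 mouse its adjusted p in edgeR ran from 0.0271 to 0.214 and stayed under 0.05 only without WT mouse 2 or KO mouse 2, at a log2 fold change of −4.87 to −4.17 throughout. Mice numbered 1 and 2 in either genotype had Y-linked transcripts and mice numbered 3 and 4 had Xist, which the labels do not mention. Absorptive enterocyte markers were present in every mouse, with a summed level over 15 genes of 3743 to 6617 CPM in WT and 4738 to 12573 CPM in KO mice. Fibroblast, muscle, endothelial and blood markers were few or low: 4 of 8 fibroblast and muscle genes, 3 of 7 endothelial and pericyte genes and 1 of 5 blood genes had enough reads to be tested. The KO mouse numbered 3 had the highest summed enterocyte marker level of the 8 mice, and it was also the highest mouse for 8 of the 10 hydrolases and the next to KO mouse 4 for Alpi and Naaladl1. In whole crypt RNA, a lower share of cells of one type and less RNA in each such cell cannot be told apart.

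The 10 hydrolases together took 0.249% to 0.444% of all counted reads in WT mice and 0.349% to 1.02% in KO mice. Compared per length, as the deposited FPKM, which divide by gene length and library size, the most abundant in WT crypts were Anpep (mean level 161 FPKM), Mgam (119), Naaladl1 (105) and Sis (70.4). Alpi (65.1) and Enpep (58.9) followed, and Dpp4 (20.4), Ace (19.0), Lct (12.5) and Treh (9.36) were the scarcest. Neighbours in this order could rarely be separated: Enpep above Dpp4 was the only neighbouring step that held in 4 of 4 WT mice. In KO mice the mean levels were 428 FPKM for Anpep, 258 for Naaladl1, 177 for Mgam and 136 for Sis, then 117 for Enpep, 75.8 for Alpi, 48.9 for Ace, 37.1 for Dpp4, 31.7 for Lct and 20.4 for Treh. Naaladl1 stood above Mgam, Mgam above Sis and Enpep above Alpi in 4 of 4 KO mice, and the other neighbouring steps held in 2 or 3 of 4. The CPM values below divide by library size only and serve to compare mice within a gene.

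All 10 hydrolases had a higher fitted level in KO than in WT crypts, from 1.16-fold for Alpi to 2.64-fold for Anpep. The median log2 fold change was 1.05, against −0.02 over all 16109 genes tested. As the 10 were chosen with earlier results of these data known, their values beside those of all genes are a description. The spread within a genotype was wide, and only Naaladl1 separated the genotypes without overlap. KO mice 3 and 4 stood above every WT mouse for all 10 genes, while KO mouse 1 stood within the WT range for 8 of the 10. All 10 passed the filter on low counts, and 0 of 10 had an adjusted p under 0.05 in edgeR, where 0.00621% of all genes did. At an unadjusted p under 0.05, edgeR called 5 of 10 (Naaladl1, Anpep, Enpep, Mgam and Dpp4), each higher in KO, while 5.33% of all genes were called in that direction. Blocking on the replicate number gave a count of 7, against 7.14% of all genes, as Sis (unadjusted p 0.0588 without and 0.0338 with the block, edgeR) and Treh (0.0530 and 0.0349) joined the other 5. DESeq2 called 1 of 10 after adjustment, Naaladl1, and 0.577% of all genes (93 of 16109), and limma on log2 FPKM called 0. The two-sided exact permutation test of each gene alone gave p from 0.0286 (Naaladl1) and 0.0857 (Anpep) to 0.800 (Alpi). The unadjusted count rested on single mice: it was 1 without WT mouse 1, WT mouse 2 or KO mouse 3, 2 without KO mouse 4, 3 without WT mouse 3, 7 without WT mouse 4 or KO mouse 2, and 8 without KO mouse 1. The share of all genes called higher in KO in these fits was 4.06% without WT mouse 1, 4.38% without WT mouse 2, 2.99% without KO mouse 3, 3.69% without KO mouse 4, 3.90% without WT mouse 3, 6.41% without WT mouse 4, 5.52% without KO mouse 2 and 7.94% without KO mouse 1. It was thus also highest in the fit with 8 hydrolases. The median log2 fold change was 0.51 without KO mouse 3 and 1.36 without WT mouse 4. The number of hydrolases with every KO mouse above every WT mouse was 1 of 10, against 2.17% of all genes tested, and became 3 without WT mouse 4 (Anpep and Enpep beside Naaladl1), against 5.25% of all genes, and 2 without KO mouse 1 (Mgam beside Naaladl1), against 6.33%.

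Among the disaccharidases, Sis, sucrase-isomaltase, splits sucrose and the branch points of starch (ENSMUSG00000027790, chr3:72888557-72967863 on GRCm38, minus strand, 47 exons in the longest coding transcript). Its levels in WT mice 1 to 4 were 658, 293, 566 and 602 CPM, and in KO mice 1 to 4 they were 518, 474, 1796 and 1276 CPM. The genotypes overlapped: KO mice 1 and 2 lay below 3 of the 4 WT mice, while KO mice 3 and 4 lay above all of them. The log2 fold change of KO over WT was 0.94 with a standard error of 0.44 (95% interval −0.04 to 1.92, adjusted p = 0.614, edgeR with Benjamini-Hochberg adjustment). Mgam, maltase-glucoamylase, takes glucose from the ends of starch fragments (ENSMUSG00000068587, chr6:40628831-40769123, plus strand, 48 exons). It was the most even of the 10 in WT mice, at 1079, 928, 1131 and 1036 CPM, a ratio of 1.22 between the highest and lowest mouse. In KO mice it stood at 987, 1265, 2313 and 1601 CPM, so that only KO mouse 1 fell within the WT range. Its log2 fold change was 0.56 ± 0.23 (SE), with an interval of 0.05 to 1.08 and an adjusted p of 0.563 (edgeR).

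Lct, lactase-phlorizin hydrolase, the enzyme of milk sugar (ENSMUSG00000026354, chr1:128284756-128328318, minus strand, 17 exons), varied far more. It was measured at 55.0, 32.4, 58.5 and 176 CPM in WT mice and at 23.6, 91.8, 501 and 199 CPM in KO mice. The lowest and the highest of the 8 mice were both KO, with 21.3 times between them, against 5.42 times within WT. The log2 fold change of 1.34 had a standard error of 0.82 and an interval from −0.50 to 3.18 (adjusted p = 0.688, edgeR), and it moved between 0.38 and 2.07 when 1 mouse at a time was left out. Treh, trehalase, which splits the disaccharide of fungi and insects (ENSMUSG00000032098, chr9:44673233-44686305, plus strand, 15 exons), was the scarcest, at 19.2, 9.76, 13.7 and 34.6 CPM in WT and 17.8, 24.3, 77.5 and 48.3 CPM in KO mice. KO mice 1 and 2 lay within the WT range, and KO mice 3 and 4 above it. For Treh the log2 fold change was 1.12 ± 0.50 (SE; interval −0.02 to 2.25, adjusted p = 0.596, edgeR). Treh overlaps Phldb1 on the opposite strand, a gene with up to 2435 counts in a mouse, and since strand-aware counting is not stated, the reads of these genes may not be fully separated. Of the 50-base stretches of Treh, 1.55% are shared with the gene model Gm47238, and of those of Mgam, 0.388% with the pseudogene Mgam2-ps.

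Alpi, intestinal alkaline phosphatase, removes phosphate from luminal substrates including bacterial lipopolysaccharide (ENSMUSG00000079440, chr1:87098002-87101606, minus strand, 11 exons). It was at 151, 110, 148 and 205 CPM in WT mice and at 143, 82.1, 225 and 261 CPM in KO mice. KO mouse 2 was the lowest of all 8 and KO mice 3 and 4 were the highest, so the genotypes overlapped over most of their range. Alpi had the smallest log2 fold change of the 10 (0.21 ± 0.33 SE, interval −0.52 to 0.95, adjusted p = 0.910, edgeR). Without KO mouse 4 the value was −0.03. Of its 50-base stretches, 2.40% are shared with another gene, most often the neighbouring phosphatase gene Akp3, so a small part of its reads may be assigned uncertainly. Akp3, which codes for a related phosphatase, had a log2 fold change of −0.50 (unadjusted p = 0.483, edgeR).

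Of the peptidases, Anpep, aminopeptidase N, trims neutral residues from the amino end of peptides and was the most abundant hydrolase per length in both genotypes (ENSMUSG00000039062, chr7:79821803-79861059, minus strand, 20 exons). It stood at 364, 425, 580.4 and 1319.8 CPM in WT and at 918, 1001, 3115 and 2073 CPM in KO mice. WT mouse 4 lay above KO mice 1 and 2, and the other 3 WT mice lay below every KO mouse. Its log2 fold change, 1.40 ± 0.50 (SE; interval 0.28 to 2.53), was the largest of the 10, with an adjusted p of 0.533 (edgeR). Enpep, aminopeptidase A, removes acidic residues and inactivates angiotensin II (ENSMUSG00000028024, chr3:129269175-129332720, minus strand, 20 exons). It was at 265, 149, 277 and 428 CPM in WT mice and at 301, 337, 891 and 681 CPM in KO mice. WT mouse 4 was again the one WT mouse above KO mice 1 and 2. This gave a log2 fold change of 0.98 ± 0.40 (SE; interval 0.09 to 1.88), with an adjusted p of 0.563 (edgeR).

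Ace, the angiotensin-converting enzyme, takes dipeptides from the carboxyl end of peptides (ENSMUSG00000020681, chr11:105967945-105989964, plus strand, 25 exons). Ace was read at 72.0, 25.6, 72.9 and 235 CPM in WT mice and at 41.7, 97.7, 606 and 294 CPM in KO mice. Like Lct it was spread widely, 9.17 times between the WT extremes and 14.5 times between the KO extremes, and KO mouse 1 lay below 3 WT mice. The log2 fold change of 1.36 had a standard error of 0.84 (interval −0.53 to 3.24, adjusted p = 0.694, edgeR). Dpp4, dipeptidyl peptidase 4, cuts dipeptides ending in proline or alanine and inactivates incretin hormones (ENSMUSG00000035000, chr2:62330073-62412231, minus strand, 26 exons). Dpp4 was at 91.0, 93.7, 135 and 199 CPM in WT mice and at 126, 166, 403 and 247 CPM in KO mice. KO mice 3 and 4 exceeded all WT mice, and KO mouse 1 lay below WT mice 3 and 4. Dpp4 thus had a log2 fold change of 0.86 ± 0.37 (SE; interval 0.02 to 1.70, adjusted p = 0.588, edgeR).

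Naaladl1, a zinc peptidase of the glutamate carboxypeptidase family known from the ileal brush border (ENSMUSG00000054999, chr19:6105782-6115792, plus strand, 18 exons), was the one hydrolase for which every KO mouse lay above every WT mouse. WT mice had 172, 342, 187 and 348 CPM and KO mice had 370.2, 657, 758 and 798 CPM. The gap was narrow between WT mouse 4 and KO mouse 1, and the spread within a genotype was small beside that of Lct or Ace, with 2.02 times between the WT extremes and 2.15 times between the KO extremes. The log2 fold change was 1.30 ± 0.30 (SE; interval 0.62 to 1.98), at p = 0.00181 before and 0.502 after adjustment over all genes (edgeR), and the two-sided exact permutation test over 70 assignments of the mice gave its smallest possible p of 0.0286. DESeq2, which called 93 genes where edgeR called 1, gave the same gene an adjusted p of 0.00224.

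**Figure D1:**
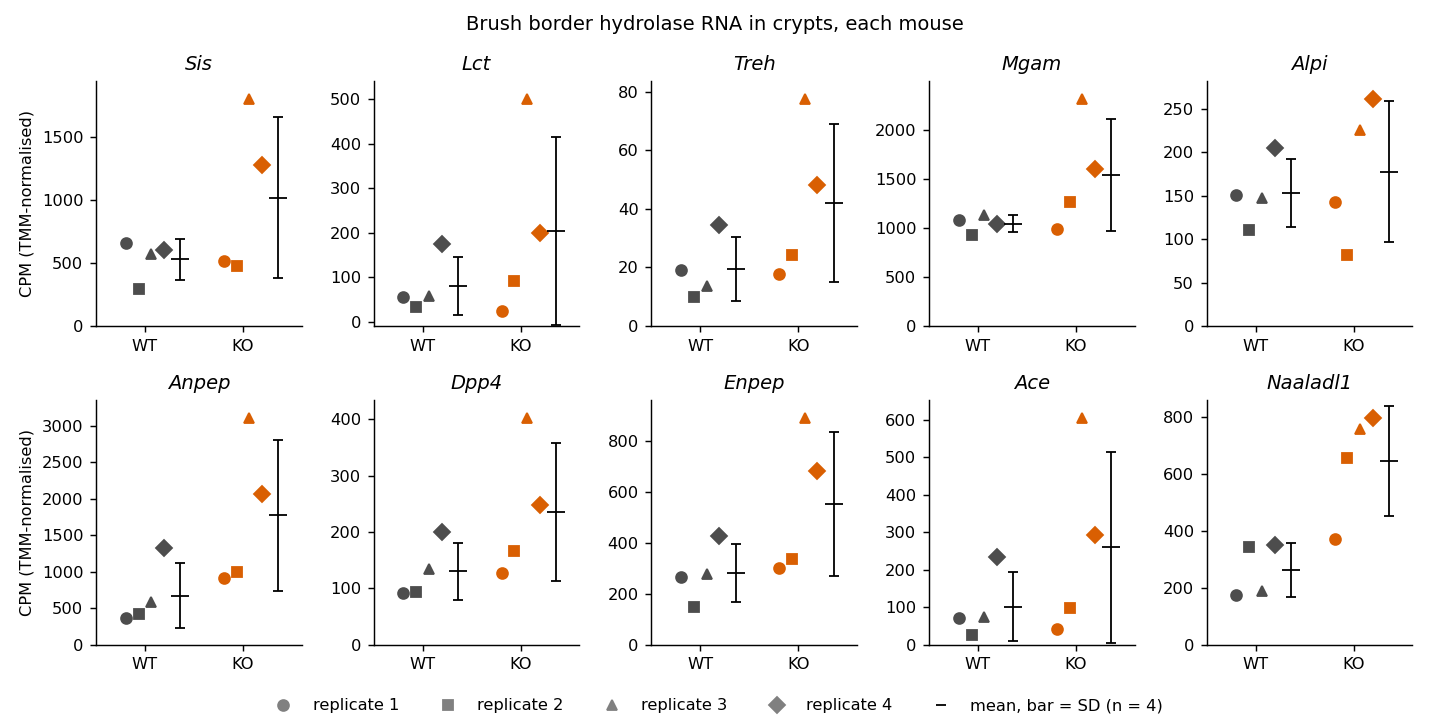
TMM-normalised CPM of each hydrolase gene in every mouse, 1 panel per gene with its own linear axis, WT in grey and KO in orange; the symbol gives the replicate number, the bar beside the points is the mean ± SD (n = 4) and reaches below 0 for Lct in KO mice. Every KO mouse stands above every WT mouse in the Naaladl1 panel only, and KO mouse 3 is the highest point in 8 of the 10 panels.

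The replicate numbers, which were treated as pairing the mice, divided the genes further. No source ties a number to a litter, and mice of 1 number share the Y or Xist group. Within pairs, KO exceeded WT in 4 of 4 for Anpep, Dpp4, Enpep and Naaladl1, in 3 of 4 for Sis, Lct, Treh, Mgam and Ace, and in 2 of 4 for Alpi. Pair 3 held the widest ratio of KO over WT for every hydrolase, up to 8.56 for Lct and 8.31 for Ace, while in pair 1 the ratios of these same genes were 0.43 and 0.58. For Naaladl1 the 4 ratios were 2.15, 1.92, 4.05 and 2.29, and for Anpep 2.52, 2.36, 5.37 and 1.57. In the Y-transcript mice (pairs 1 and 2) the log2 fold change was 0.06 for Sis and 0.17 for Mgam, and in the Xist mice (pairs 3 and 4) it was 1.39 and 0.85. The interaction of genotype with this division had an unadjusted p of 0.0254 for Sis and 0.0464 for Mgam in edgeR, but its adjusted p was 0.974 for both, and 0 genes of all tested passed. Anpep had log2 fold changes of 1.28 and 1.45 in the same divisions, and Naaladl1, at 1.54 in the Xist mice, had a positive value in both.

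**Figure D2:**
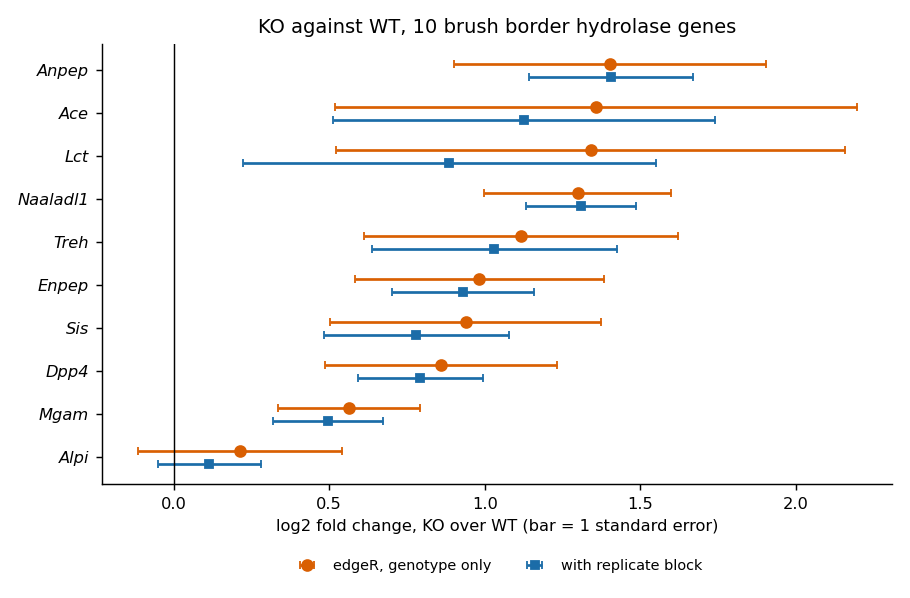
Log2 fold change of KO over WT for the 10 hydrolase genes, with 1 standard error either way, from edgeR with genotype alone (orange circles) or blocked by replicate number (blue squares); the vertical line marks no difference. Anpep, Ace, Lct and Naaladl1 all lie between 1.30 and 1.40 with genotype alone, but their standard errors run from 0.30 for Naaladl1 to 0.84 for Ace, and Alpi lies nearest to 0 in both fits.

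Each hydrolase was also read relative to other enterocyte genes of the same mouse. Its log2 CPM was set against the mean log2 CPM of the 15 absorptive enterocyte genes, a list that holds none of the 10. This mean is an RNA level and not a measured share of cells. That mean was 7.86, 7.56, 7.94 and 8.59 in WT mice 1 to 4 and 7.87, 8.31, 9.41 and 8.90 in KO mice, so the genotypes overlapped and KO mouse 3 was the highest. Relative to it, Anpep was higher in KO by 0.78 on the log2 scale (exact permutation p = 0.0571, two-sided) and Naaladl1 by 0.68 (exact permutation p = 0.114). Alpi was 0.52 lower in KO on the same scale, as a difference of −0.52 (exact permutation p = 0.200), and Mgam differed by −0.14 (exact permutation p = 0.571). The other differences ran from 0.14 for Sis to 0.50 for Ace. No hydrolase passed an exact permutation p of 0.05 on this relative scale in this unpaired test, and the genotypes overlapped for each of them. The part of the enterocyte level in the hydrolase differences was not tested. Within the 4 pairs of mice with the same number, a comparison added after seeing the data, Anpep, Dpp4, Enpep and Naaladl1 were higher in the KO mouse of every pair. The KO minus WT difference of Enpep on this relative log2 scale was 0.18, 0.43, 0.22 and 0.36 in pairs 1 to 4, a mean of 0.30 ± 0.12 (SD, n = 4 pairs). Anpep differed by 1.33, 0.49, 0.96 and 0.34 (mean 0.78 ± 0.45) and Naaladl1 by 1.10, 0.19, 0.55 and 0.88 (mean 0.68 ± 0.40). Dpp4 averaged 0.16 ± 0.21, with a difference near 0 in pair 4. An exact sign-flip permutation test over 4 pairs cannot go below a two-sided p of 0.125, the value these 4 genes had, so it could not pass 0.05. Ace and Lct, which have among the largest fold changes, had the highest Pearson's r with the enterocyte list, 0.988 and 0.987 over the 8 mice after each genotype mean was subtracted. They moved by more than the list did. Relative to it, Lct was at −3.30 in KO mouse 1 and −0.44 in KO mouse 3, and Ace at −2.48 and −0.16.

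Most of the hydrolases varied together within a genotype. After subtraction of the genotype means, the median r of a hydrolase with the other 9 over 8 mice ran from 0.743 for Alpi to 0.913 for Enpep, leaving Naaladl1 aside, and Enpep with Ace reached 0.981. Naaladl1 had a median of 0.488 and a lowest value of 0.197 with Sis. These points share their libraries and depth, so r is given as a description without a test. Against genes that mark intestinal regions, Naaladl1 had an r of 0.812 with the mean log2 CPM of 6 ileum genes and 0.182 with that of 8 proximal genes, whereas Alpi had 0.465 and 0.945, and Sis 0.271 and 0.913. Anpep lay nearer the ileum pattern than Sis did, with 0.782 for the ileum genes and 0.672 for the proximal genes.

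**Figure D3:**
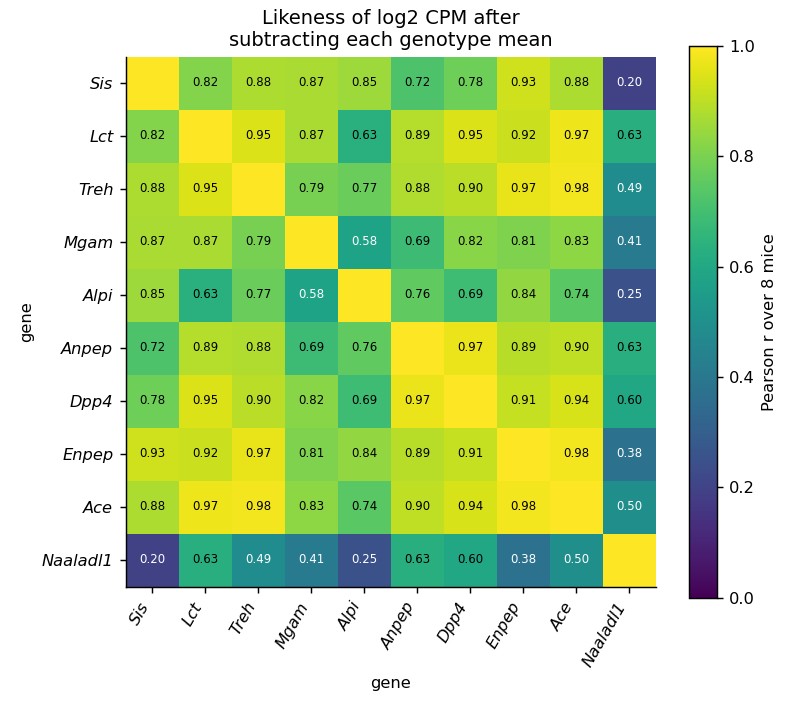
Pearson's r between each pair of hydrolase genes over 8 mice, from log2 CPM with the mean of each genotype subtracted, on a colour scale from 0 to 1. The last row and column, Naaladl1, run from 0.197 with Sis to 0.632 with Anpep, Mgam with Alpi is at 0.580, and the block of Lct, Treh, Dpp4, Enpep and Ace is uniformly high.

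The ileum genes themselves had higher levels in KO. All 6 had an unadjusted p under 0.05 (edgeR), where 5.33% of all genes were called higher in KO, and 0 of the 6 passed after adjustment. Their median log2 fold change was 1.43. Their summed level was 150 to 463 CPM in WT and 501 to 988 CPM in KO mice, without overlap. They were led per length by Fabp6, the ileal bile acid binding protein (log2 fold change 1.34), and included Slc51a (1.10) and Slc51b (1.51), the subunits of the basolateral bile acid exporter, and the hormone Fgf15 (2.06). Of the 8 proximal genes, 1 was higher and 1 lower at that level (3.05% of all genes were called lower), Adh6a (0.36) and the transcription factor Onecut2 (−0.66), beside Gata4 (−0.26) and Gstm3 (0.06), and their summed level was 411 to 545 CPM in WT and 345 to 504 CPM in KO mice. Of the 7 colon genes in the table, 3 had no count in any mouse and 2 were tested, with 0 passing. How much of each crypt preparation came from which segment is not recorded, and the part of segment in the levels of Naaladl1 and the other hydrolases was not tested.

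**Figure D4:**
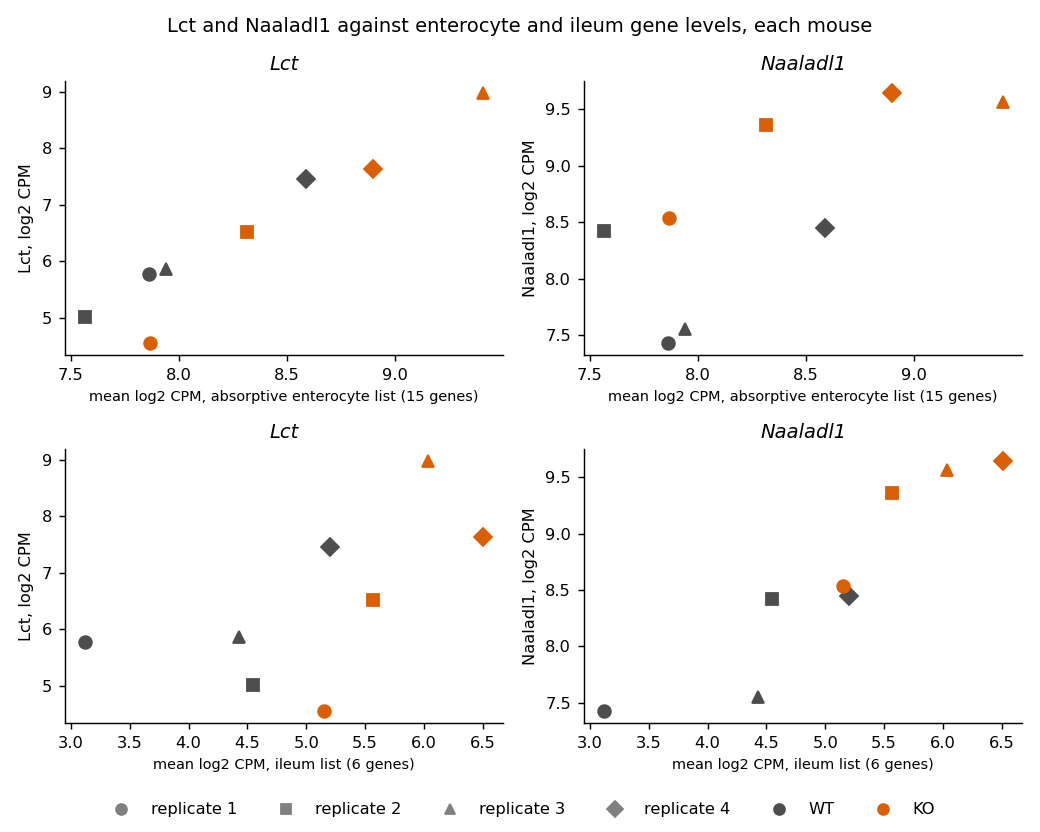
Log2 CPM of Lct (left) and Naaladl1 (right) in each mouse against the mean log2 CPM of 15 absorptive enterocyte genes (top) and of 6 ileum genes (bottom), WT in grey and KO in orange, with the symbol giving the replicate number. Lct rises with the enterocyte mean, from 23.6 CPM in KO mouse 1 (mean 7.87) to 501 CPM in KO mouse 3 (mean 9.41). It is at 55.0 CPM in WT mouse 1, whose mean is 7.86. For Naaladl1, KO mice 1, 2 and 4 lie above the WT mice nearest in enterocyte mean, and KO mouse 3 lies beyond the highest WT mean (8.59). Relative to that mean the genotypes overlap, with WT mouse 2 at 0.85 and KO mouse 3 at 0.16 (exact permutation p = 0.114).

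Other enzymes of the same membrane were read from a list of 16 further brush border hydrolases, of which 13 were tested. This list, like the other lists, was chosen with earlier results of these data known. At an unadjusted p under 0.05 (edgeR), 5.33% of all genes were called higher in KO and 3.05% lower. In this list 7 of 13 were higher and 0 lower, with a median log2 fold change of 1.38. They were led by the meprin subunit Mep1a (1.27, unadjusted p = 0.00648, edgeR) and the dipeptidase Dpep1 (1.57, unadjusted p = 0.00989, edgeR), then the proline peptidase Xpnpep2 (1.69) and the second meprin subunit Mep1b (1.47). Akp3, named after its values were seen, was the only one of the 13 with a negative value. Among 12 transporters of the digestion products, 4 were higher and 0 lower, with a median of 0.83: the phosphate carrier Slc34a2 (1.82), the amino acid transporter subunits Slc7a9 (0.89) and Slc7a7 (0.83), and the imino acid carrier Slc6a20a (0.75). The sodium-glucose cotransporter Slc5a1, which takes up the product of Mgam, Sis and Treh, had a log2 fold change of 0.82 (unadjusted p = 0.0549, edgeR). None of these genes had an adjusted p under 0.05 in edgeR.

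The counts of this paragraph stand beside 5.33% of all genes called higher in KO and 3.05% lower at an unadjusted p under 0.05 (edgeR). The absorptive enterocyte list had 7 of 15 genes higher and 0 lower, with a median of 0.68 (Cdhr5 0.80, Apoa1 1.78, Krt20 1.05 and Vil1 0.59 passed, Fabp2 at 0.88 and Fabp1 at 0.10 did not), and its level varied with the hydrolases as described above. The 14 transcription factors listed for enterocytes, not all of them known to raise enterocyte genes, ran from −0.66 (Onecut2, the 1 that was lower) to 1.10 (Maf, the 1 that was higher). They had 7 positive values and a median of −0.01. Hnf4a had a log2 fold change of −0.04, Cdx1 of 0.10 and Cdx2 of 0.09, with unadjusted p of 0.640, 0.234 and 0.408 (edgeR). Klf4, named because the study followed it as a factor of differentiation, had 0.41 (unadjusted p = 0.0749, edgeR). All 8 stem cell markers had a negative log2 fold change, with a median of −0.28, and 5 passed at an unadjusted p of 0.05 (edgeR), where 3.05% of all genes were called lower, and 0 of 8 proliferation genes passed. Paneth markers (0 of 6 passed, median −0.67), goblet markers (2 higher and 1 lower of 7, median 0.24), enteroendocrine markers (1 higher of 8), and tuft (4 tested), B cell (6) and myeloid markers (5), with 0 passing, were read beside them. T cell markers were highest where the hydrolases were: 5 of 8 were higher in KO (with Gzmb at 1.39, Gzma at 1.38, Cd8a at 1.29 and Cd3e at 1.60), the summed level was 12.3 to 46.7 CPM in WT and 26.3 to 101 CPM in KO mice, KO mouse 3 was again the highest, and none of the 8 was at 0 throughout. Their part in the hydrolase levels was not tested.

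**Figure D5:**
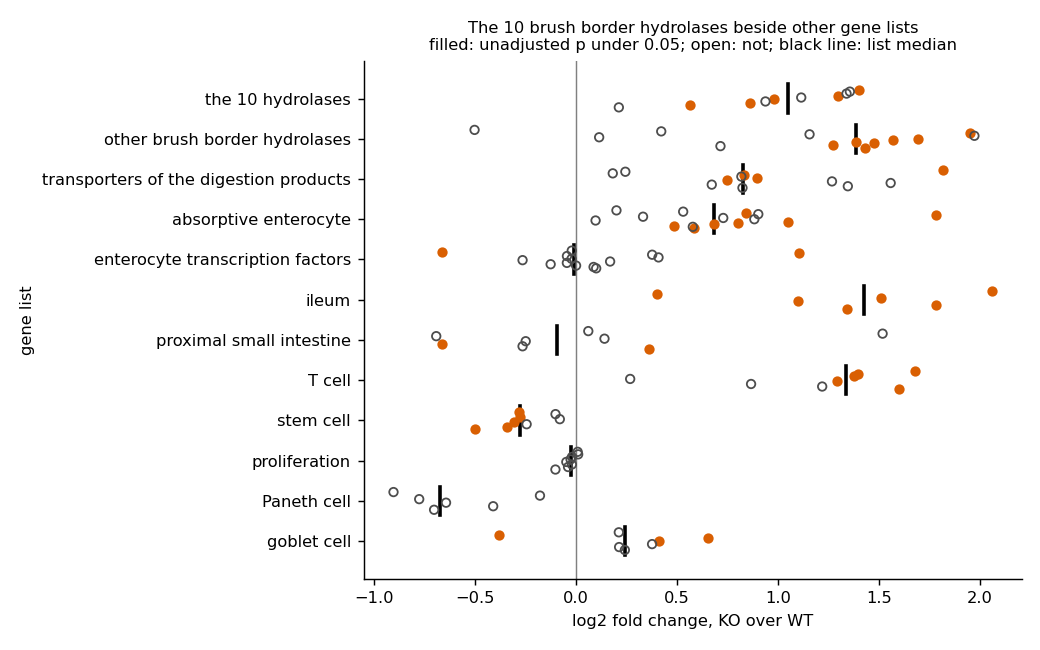
Log2 fold change of KO over WT for each tested gene of the 10 hydrolases and of 11 other lists, 1 point per gene (filled for an unadjusted p under 0.05 in edgeR, open otherwise), with a black line at the list median. The medians of the hydrolases (1.05), the other brush border hydrolases (1.38), the ileum list (1.43) and the T cell list (1.34) lie to the right, the enterocyte transcription factors lie about 0 (−0.01), and the stem cell list lies to the left (−0.28).

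Genes whose log2 CPM was most like the mean standardised level of the 10 over the 8 mice were Pxdc1 (r = 0.996), Plekhg6 (0.992), Myo1a (0.989) and Dock2 (0.989). After subtraction of the genotype means they were Acaa1b (0.997), Pxdc1 (0.997), Slc7a9 (0.995), Spns2 (0.992) and Rbp2 (0.992). Myo1a codes for a myosin of the microvillus core and Rbp2 for the retinol-binding protein of enterocytes.

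Since the hydrolases varied together, their proximal promoters were read from the RefSeq table of GRCm38.p6, which held 10 promoters for 9 of the 10 genes, with 2 for Ace. Naaladl1 had no entry. The gene start used for counting lay at −12849 bases from the Anpep promoter start and at −7244 from the second Ace start. Both of these starts thus lie inside the counted gene, and both are among the 10 promoters. The 150 bases before the start are printed 5′ to 3′ for Enpep and Ace, the pair most alike from mouse to mouse, for Lct, which varied most in KO, for Sis and Mgam, which digest starch, and for Alpi, which differed least. Capitals mark matches, on either strand, to GTTAAT (bound by HNF1 factors), TTTAT (CDX factors), GATAA (bound by GATA factors), CAAAG (part of the HNF4 site) and TATAAA (the letters of the TATA box, at any position). The letters overlap, as every TATAAA holds a TTTAT on the other strand, and TTTATC holds a GATAA on the other strand. Sis lies at chr3:72967864-72968013, Lct at chr1:128328319-128328468, Enpep at chr3:129332750-129332899 and Alpi at chr1:87101607-87101756, all on the minus strand, and Mgam at chr6:40628681-40628830 and the first Ace start at chr11:105967798-105967947 on the plus strand.
Sis: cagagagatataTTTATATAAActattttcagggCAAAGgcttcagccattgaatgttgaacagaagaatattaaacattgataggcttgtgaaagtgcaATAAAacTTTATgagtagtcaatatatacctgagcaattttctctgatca
Lct: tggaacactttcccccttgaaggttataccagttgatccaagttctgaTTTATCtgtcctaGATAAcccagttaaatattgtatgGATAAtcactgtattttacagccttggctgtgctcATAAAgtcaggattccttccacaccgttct
Mgam: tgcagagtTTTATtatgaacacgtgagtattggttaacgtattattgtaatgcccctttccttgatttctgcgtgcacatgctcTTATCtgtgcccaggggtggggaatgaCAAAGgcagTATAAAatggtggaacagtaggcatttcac
Alpi: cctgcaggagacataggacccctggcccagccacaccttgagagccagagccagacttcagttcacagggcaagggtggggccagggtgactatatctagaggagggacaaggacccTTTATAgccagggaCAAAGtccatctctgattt
Enpep: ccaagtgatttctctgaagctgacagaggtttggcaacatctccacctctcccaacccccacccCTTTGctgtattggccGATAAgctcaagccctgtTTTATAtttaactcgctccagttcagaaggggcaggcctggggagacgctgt
Ace: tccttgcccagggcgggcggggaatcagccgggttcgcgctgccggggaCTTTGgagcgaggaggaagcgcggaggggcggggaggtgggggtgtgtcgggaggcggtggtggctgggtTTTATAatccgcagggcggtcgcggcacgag

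In the 250 bases before the start, TTTAT was found in 7 of the 10 promoters against 37.3% of all 32851 promoters, and TATAAA in 6 against 12.4%. On the strand of the gene, TATAAA lay 30 to 25 bases before the start in Mgam, 134 to 129 in Sis and 227 to 222 in Dpp4. In Alpi, Enpep and Ace it lay on the opposite strand only. CAAAG was in 8 against 48.6%, GATAA in 4 (Dpp4, Enpep, Lct and Mgam) against 22.6%, and GTTAAT in 1, that of Sis, against 6.43%, at 165 to 160 bases before the start and so outside the stretch printed. Lct carried GATAA 3 times, and Sis carried TTTAT 4 times. Alpi, whose level differed least between the genotypes, held the CDX, TATA and HNF4 letters like Sis, Mgam and Enpep. These matches describe the letters of the windows and no binding was measured.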

How the data were processed

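RNA of intestinal crypts from 4 WT and 4 KO mice, 8 weeks old, was analysed, with groups and replicate numbers taken from the labels. Per gene and mouse, the authors deposited raw counts and FPKM, made with HISAT2 2.0.5 and featureCounts 1.5.0-p3 per the submitters' processing notes, whose options and strand setting are not given in the sources used here. The deposited FPKM were checked to be counts divided by gene length and counted reads, with a ratio of 0.951 to 1.04 to that quotient. Columns with the authors' own comparison (fold changes, p-values and group means) and their list of changed genes were not used.

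Counts were compared with edgeR 4.0.16 in R 4.3.3: filterByExpr with a minimum count of 10, TMM factors, and the quasi-likelihood test with genotype as the only term and all 8 mice, on the 16109 genes that passed, with Benjamini-Hochberg adjustment over all of them at 0.05. The fit had 6 residual and 3.34 prior degrees of freedom, and the biological coefficient of variation was 0.237. At these depths the 10 genes had at least 209 counts in every mouse, so the spread between mice outweighs counting error. DESeq2 1.42.0, limma 3.58.1 on log2(FPKM + 1) and log2(FPKM + 0.1) with a mean FPKM of at least 1, other scaling factors, other filters, a replicate block, the Xist or Y group as a covariate and leaving out each mouse were the alternatives. Single values were compared by the two-sided exact permutation test. The fits were tested on simulated data, in which a larger share of the calls of DESeq2 than of those of edgeR was false at the same adjusted threshold.

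Gene coordinates are those of the files and matched GENCODE M21 on GRCm38, transcripts included, and promoters came from RefSeq. Python 3.11.15 and matplotlib 3.10.9 were used. After subtracting genotype means, the log2 levels of mice with 1 number in common correlated at 0.129, 0.501, 0.141 and 0.294 over all genes (0.0913, 0.474, 0.0904 and 0.250 over autosomal genes). On this ground the numbers were treated as pairing the mice, although no source ties a number to a litter. Mice of different numbers were not compared in this way. Mice of 1 number also share the Y or Xist group, so these values cannot tell pairing from that shared group. Pairs of libraries of 1 genotype differed beyond sampling noise (chi-square over its degrees of freedom, 20.9 to 76.5). The 10 genes and the other lists (further brush border hydrolases, transporters, transcription factors, cell types and intestinal regions) were chosen with earlier results of these data known. Of each list the text names genes among the 3 with the highest mean FPKM and up to 4 with the lowest unadjusted p under 0.05, and the 5 genes most like the 10 by Pearson's r; 1 gene that this rule names is not reported here.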

Additional observations from a re-analysis of the deposited data

Results flagged for a closer look

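No hydrolase was singled out: in 20 groups of 4 mice (10 genes in each genotype), the gap of the highest or lowest mouse to its neighbour stayed within Dixon's 95% limit. The genotype effect did not differ between Y-transcript and Xist mice at an adjusted p under 0.05 for any gene tested in edgeR.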

How the results depend on the processing

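For single hydrolases, 178 of 180 alternatives kept the direction and the side of the adjusted threshold; Naaladl1 passed it with DESeq2, and Alpi, which ran from −0.032 to 0.45 without 1 mouse, turned negative without KO replicate 4. Naaladl1 had an unadjusted p under 0.05 in 18 of 18 alternatives (log2 fold change 1.14 to 1.49), Anpep in 15, Enpep and Mgam in 10, Dpp4 in 9, Treh in 6, Sis in 4, Lct in 2, Ace in 1 and Alpi in 0. The count of hydrolases past the adjusted threshold was 0 except with DESeq2 (1). The unadjusted count of 5 became 2 with limma on log2 FPKM under each pseudocount and filter (3.83% to 5.4% of all genes were called higher), and ran from 1 to 8 when 1 mouse was left out. With a replicate block it was 7, with 7.14% of all genes called higher, and 0 hydrolases passed the adjusted threshold, as without it, while over all genes the count went to 0 because Mex3a lost its call (adjusted p = 0.126, edgeR). Hydrolases with every KO mouse above every WT mouse numbered 1 to 3 when 1 mouse was left out, an alternative added after seeing the data. Over all genes, the count past the adjusted threshold was 1, and became 93 with DESeq2, 2 with no filter, 0 with at least 10 counts in every mouse, 4 with the Xist or Y group as a covariate, 0 with limma on log2(FPKM + 0.1), 3 with limma on unfiltered log2(FPKM + 1), and 0 to 4 without 1 mouse. The median log2 fold change of the 10 ran from 0.51 to 1.36 without 1 mouse and from 0.90 to 1.05 otherwise. With 4 mice a genotype the exact test cannot go below 0.0286, and intervals as wide as those of Lct and Ace leave a log2 fold change of 0 and of 3 both possible. The causes of these shifts were not tested.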
